A study of Homo sapiens with 4 samples.

Results

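TNFSF18 and TNFSF4 are neighboring genes of the tumor necrosis factor (TNF) ligand superfamily on the long arm of chromosome 1. MTF-1 occupancy around them was read from the MTF-1 peak lists of control and cadmium-resistant MDA-MB-231 cells. The window ran from 200 kb before the first of the 2 genes to 200 kb after the last, chr1:172839202-173407331 on hg38, a stretch of 568.1 kb. It held 32 of the 69299 peaks of the control list and 16 of the 60130 peaks of the cadmium list. The locus was chosen from earlier results of these same lists, in which TNFSF18 had a start-site peak in control cells only, so the losses given here are a description and carry no test.

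MDA-MB-231 is an established breast cancer cell line. CUT&RUN, in which an antibody guides a nuclease to a chromatin-bound protein and the released DNA is sequenced, was performed with an anti-MTF1 antibody on 2 control libraries, from cells serially passaged in normal medium, and on 2 libraries from cells passaged long term with 10 µM cadmium, supplied as cadmium sulfate. Both groups are populations of this single line, and the cadmium group differs from the control in its selection as well as in the metal. The replicates of each group were merged before peak calling, so there is 1 list per condition, with no read count, height or replicate spread, and nothing in it by which the cell line could be checked against marker genes. A peak is called lost when it is in the control list and shares no base with a cadmium peak, gained when it is in the cadmium list and shares no base with a control peak, and conserved otherwise.

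MTF-1, a zinc finger protein, binds metal response elements and activates metallothionein and metal transport genes. TNFSF18 encodes GITRL, the ligand of the receptor GITR (gene TNFRSF18), and TNFSF4 encodes OX40L, the ligand of OX40 (gene TNFRSF4). Both ligands are membrane proteins best known from antigen-presenting and endothelial cells, where they co-stimulate T cells, and their receptors signal through TRAF proteins to NF-κB.

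All peaks unique to a condition in this window were losses. Of the 32 control peaks, 17 were lost and 15 were conserved, and all 16 cadmium peaks overlapped a control peak. Lost peaks thus made up 53.1% of the control peaks of the window (95% exact binomial interval 34.7 to 70.9%), against 27.9% of the whole control list. No gained peak was present among the 16 cadmium peaks (0%, interval 0 to 20.6%), against 15.1% of the whole cadmium list. The intervals cover counting error only, neighboring peaks are not independent, and the window was picked with its losses known. Inside the limits of the window, control peaks covered 41700 bp and cadmium peaks 16184 bp, so the cadmium list covered 38.8% of the control length, against 69.7% over the whole lists and 74.7% on chromosome 1. The adjoining regions differed, with 46.0% in the 1 Mb before the window and 69.4% in the 1 Mb after it. A low share was therefore not particular to the window.

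**Figure D1:**
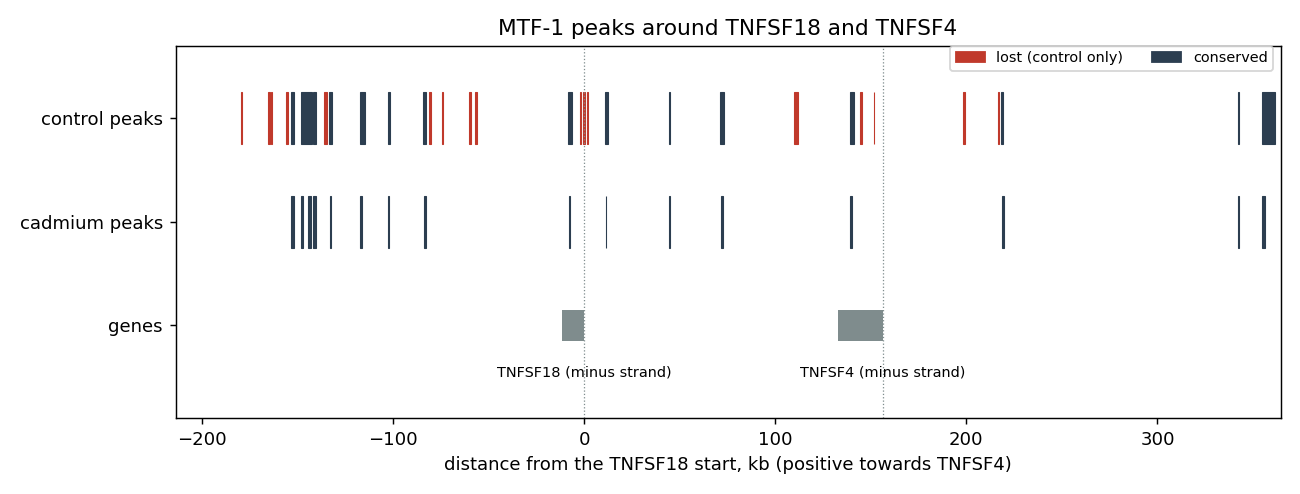
Peaks of the control list (upper row) and the cadmium list (middle row) along the window, with the bodies of TNFSF18 and TNFSF4 (lower row, dotted lines at their outermost starts) on a scale of kb from the TNFSF18 start. The 17 lost peaks lie on both sides of both genes, and every one of the 16 cadmium peaks overlaps a conserved control peak.

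Sequences are shown mainly for TNFSF18, where the start-site peak was lost, and for 1 conserved peak of TNFSF4. They are the 250 bases upstream of the TNFSF18 start, which lay inside the lost start-site peak, and 300 bases around the centre of 2 lost control peaks and 3 peaks that remained in cadmium. Letters in capitals are matches, on either strand, to the AP-1 strings TGACTCA and TGAGTCA, to a forkhead string (ATAAACA or ATAAATA or GTAAACA or GTAAATA), or to the core of the metal response element, TGCACNC or TGCGCNC. None of the matches shown overlap. The promoter is RefSeq sequence on GRCh38.p14, read 5′ to 3′ on the minus strand from chr1:173050942-173051191, and the others were read on the plus strand of hg38.
TNFSF18 upstream, lost start-site peak, minus strand: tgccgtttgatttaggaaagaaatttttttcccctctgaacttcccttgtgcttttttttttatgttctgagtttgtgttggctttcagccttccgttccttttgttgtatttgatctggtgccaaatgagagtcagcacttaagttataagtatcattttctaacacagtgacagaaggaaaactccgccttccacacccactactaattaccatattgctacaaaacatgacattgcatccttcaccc
TNFSF18 first intron, lost, chr1:173048851-173049150: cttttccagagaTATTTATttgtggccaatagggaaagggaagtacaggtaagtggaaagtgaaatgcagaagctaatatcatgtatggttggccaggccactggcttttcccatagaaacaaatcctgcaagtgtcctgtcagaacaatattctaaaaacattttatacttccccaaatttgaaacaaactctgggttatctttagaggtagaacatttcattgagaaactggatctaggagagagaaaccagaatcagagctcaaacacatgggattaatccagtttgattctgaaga
Upstream of TNFSF18, lost, chr1:173052751-173053050: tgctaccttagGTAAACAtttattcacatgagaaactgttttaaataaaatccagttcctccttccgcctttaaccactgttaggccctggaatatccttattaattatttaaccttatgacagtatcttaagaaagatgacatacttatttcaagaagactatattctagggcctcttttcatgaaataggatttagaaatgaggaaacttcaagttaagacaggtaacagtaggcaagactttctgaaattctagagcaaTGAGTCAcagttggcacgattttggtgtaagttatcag
TNFSF18 second intron, conserved, chr1:173043051-173043350 in the cadmium peak: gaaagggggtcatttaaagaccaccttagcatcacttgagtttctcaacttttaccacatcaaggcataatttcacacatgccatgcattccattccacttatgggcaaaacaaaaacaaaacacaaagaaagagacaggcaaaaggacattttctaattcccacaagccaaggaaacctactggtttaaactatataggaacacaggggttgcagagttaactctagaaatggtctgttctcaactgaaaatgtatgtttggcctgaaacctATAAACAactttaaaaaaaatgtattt
Further upstream of TNFSF18, conserved, chr1:173062251-173062550 in the cadmium peak: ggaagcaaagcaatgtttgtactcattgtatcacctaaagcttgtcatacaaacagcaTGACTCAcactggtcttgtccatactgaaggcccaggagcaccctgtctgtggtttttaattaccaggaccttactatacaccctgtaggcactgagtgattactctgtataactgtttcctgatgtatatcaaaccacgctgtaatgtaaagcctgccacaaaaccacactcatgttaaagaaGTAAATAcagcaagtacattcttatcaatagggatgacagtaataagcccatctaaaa
TNFSF4 intron, conserved, chr1:173190451-173190750 in the cadmium peak: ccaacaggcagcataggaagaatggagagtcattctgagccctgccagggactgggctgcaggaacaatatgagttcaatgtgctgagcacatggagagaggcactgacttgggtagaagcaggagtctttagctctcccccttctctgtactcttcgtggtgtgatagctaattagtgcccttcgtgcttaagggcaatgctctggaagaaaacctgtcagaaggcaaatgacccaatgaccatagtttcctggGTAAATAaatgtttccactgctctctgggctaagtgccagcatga

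The TNFSF18 upstream stretch held none of the 3 motifs, which says only that these letters are not in it. The 250 bases upstream of the RefSeq start of TNFSF4, chr1:173205533-173205782, are not shown because they overlap annotated exons. They held 1 metal response element core and no AP-1 or forkhead string, were 48% G and C, and lay under no peak of either list. Of the 35116 RefSeq upstream sequences of 250 bases, 4.20% held an AP-1 string, 12.4% a forkhead string and 24.8% the metal response element core. The TNFSF18 stretch was also poor in G and C, at 38.8%, against a median of 58% in those upstream sequences. Among the stretches of 300 bases, the lost peak upstream of TNFSF18 and the conserved peak beyond it each held 1 AP-1 and 1 forkhead string, and the lost peak in the first intron and both conserved intronic peaks each held 1 forkhead string. In 300 bases around the centre, an AP-1 string was in 18.1% of all control peaks and 22.1% of all cadmium peaks, a forkhead string in 20.0% and 15.8%, and the metal response element core in 22.5% and 23.3%.

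TNFSF18 (ENSG00000120337) spans chr1:173039202-173050941 on the minus strand and has 1 annotated start, at 173050941. The control list had a peak of 799 bp over this start, from 173050401 to 173051199, which covered the whole first exon of 201 bp, including its 45 bp of 5′ UTR and 156 bp of coding sequence. This peak was lost, and the nearest edge of a cadmium peak lay 7342 bp from the start. Of the 20046 protein-coding genes, 3.2% had a start-site peak, with any base within 1 kb of a start, in control only, and 1.5% in cadmium only. The TNFSF18 result was the same with a limit of 3 kb and with the peak required to lie over the start itself. It rests on a narrow peak, and a minimum peak width of 1000 bp removes this peak from the control list.

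The start-site peak was the middle one of 3 lost peaks that lay close together. The one in the first intron, of 799 bp from 173048601 to 173049399, had its centre 1941 bp downstream of the start. The one upstream, of 599 bp from 173052601 to 173053199, had its centre 1959 bp from the start. In cadmium the stretch from 173043600 to 173062200, 18.6 kb with the promoter inside it, held no peak.

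Both conserved peaks that bordered this stretch were narrower in cadmium. The control peak inside the gene, of 1799 bp from 173042601 to 173044399, included the second exon, of 31 bp at 173043939 to 173043969. The cadmium peak inside it, of 799 bp from 173042801 to 173043599, lay wholly in the second intron, so no exon of TNFSF18 lay under an MTF-1 peak in cadmium. Upstream, a control peak of 1599 bp from 173062001 to 173063599 was reduced to 399 bp, from 173062201 to 173062599, which is 25.0% of its length.

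Sequence matches were also read over the whole length of these peaks, not only around their centres. The cadmium peaks covered 44.4% of the intronic and 25.0% of the upstream control peak. Control peaks of the window held 23 AP-1 strings, 72 forkhead strings and 20 metal response element cores, and cadmium peaks 11, 31 and 9. The matches at these sites are too few to tell whether any kind was kept more than another. The remaining intronic peak kept the 1 AP-1 string of its control peak, TGACTCA at 173043447, and 2 of its 5 forkhead strings. The remaining upstream peak kept 1 of 2 AP-1 strings, TGACTCA at 173062309, and 1 of 7 forkhead strings, and left out the metal response element core TGCACAC at 173062792. The lost start-site peak held 2 forkhead strings and no AP-1 string, and each of the lost peaks on either side of it held 1 of each kind.

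TNFSF18 was also the closest start of 3 more distant control peaks. Beyond the 3′ end of the gene, peaks of 999 bp from 172990601 to 172991599 and of 1399 bp from 172993601 to 172994999 were both lost, at 59841 and 56641 bp from the start. On the other side, a peak of 399 bp from 173095601 to 173095999, 44859 bp upstream, had the same limits in both lists. In all, TNFSF18 was the closest gene of 8 control peaks, 5 of them lost and 3 conserved, and of 3 cadmium peaks, none of them gained.

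**Figure D2:**
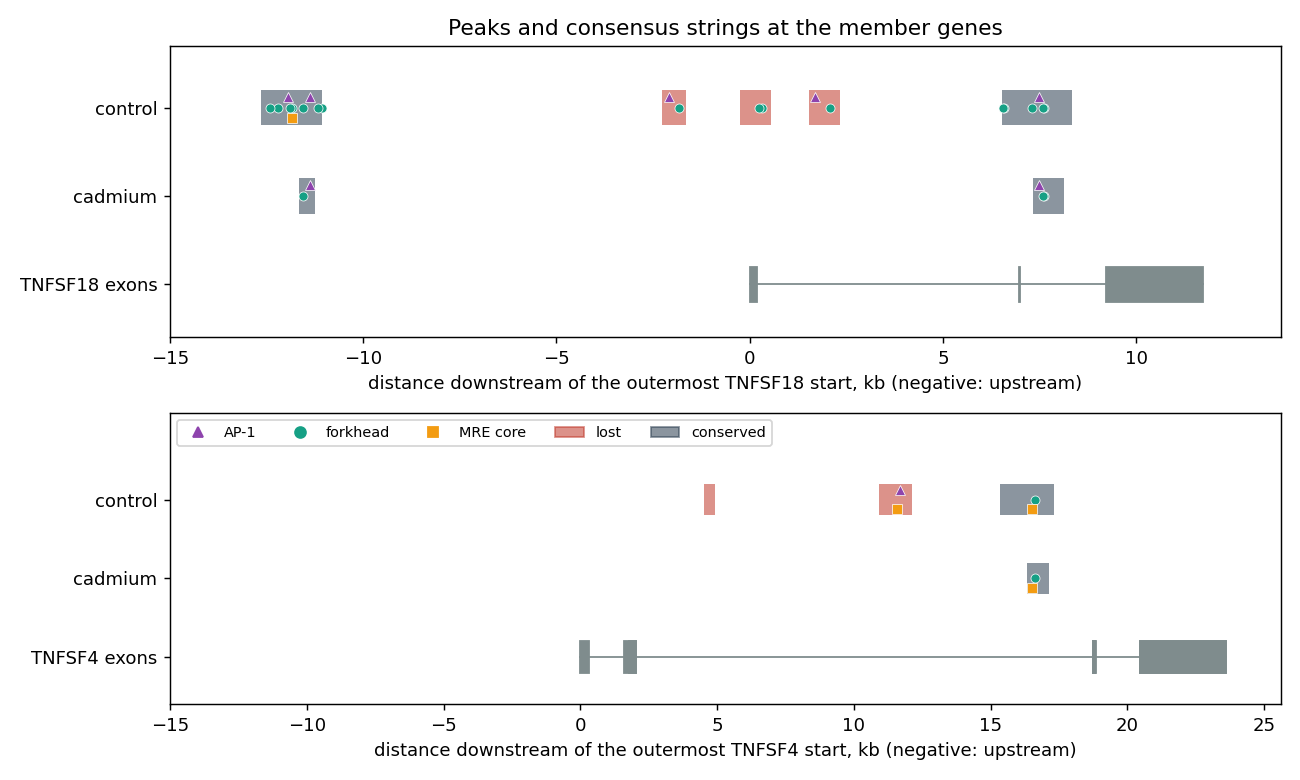
Peaks of both lists at TNFSF18 (upper panel) and TNFSF4 (lower panel) on a scale of kb from each gene's outermost start, with exons as grey boxes and matches to the AP-1, forkhead and metal response element strings as symbols, set at slightly different heights. Around the TNFSF18 start the 3 control peaks have no counterpart in cadmium, and at TNFSF4 the 1 peak left in cadmium lies in an intron, 14559 bp from the nearest start.

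TNFSF4 (ENSG00000117586) spans chr1:173183731-173207331 on the minus strand, with 132.8 kb between its 3′ end and the start of TNFSF18, and has 3 annotated starts, at 173205558, 173205724 and 173207331. None of them had a peak within 1 kb in either list. The nearest control peak lay 2759 bp from the closest start, so the gene has a start-site peak in control only when the limit is widened to 3 kb, and the nearest cadmium peak lay 14559 bp away. TNFSF18 and TNFSF4 therefore differed in control cells, where a peak covered the start of the first and none reached the start of the second, while in cadmium neither start had a peak within 3 kb.

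Inside the TNFSF4 gene body the control list had 3 peaks, all in introns. The one nearest the starts, of 399 bp from 173202401 to 173202799, was lost and held none of the motifs over its whole length. The next, of 1199 bp, was lost too. The third, of 1999 bp from 173190001 to 173191999, was conserved, and its cadmium peak of 799 bp, from 173190201 to 173190999, covered 40.0% of it. That remaining stretch held both matches of the control peak, 1 forkhead string and 1 metal response element core.

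Upstream of TNFSF4 the control list had 3 peaks with this gene as their closest. The first, of 1199 bp from 173249001 to 173250199, was lost at 42269 bp from the start. The second, of 399 bp from 173267601 to 173267999, was lost at 60469 bp. The third ran from 173269201 to 173269999, 799 bp, and was replaced by a cadmium peak of 1399 bp from 173269401 to 173270799, with 599 bp shared. This was the only site of the window at which the cadmium peak was the longer one. TNFSF4 was thus the closest gene of 6 control peaks, 4 lost and 2 conserved, and of 2 cadmium peaks, both conserved. With at least 50% of a peak required to be covered by the other list, 1 of these cadmium peaks counted as gained.

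Between the genes, 2 control peaks had other closest starts. The peak of 1999 bp from 173122201 to 173124199, nearest to the processed pseudogene GOT2P2, was conserved over 1399 bp. The peak of 1799 bp from 173161001 to 173162799, nearest to the long noncoding RNA ENSG00000226375, was lost. The processed pseudogenes ENSG00000232751 and ENSG00000231615, which start further on, beyond TNFSF4, were closest to no peak.

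On the 3′ side of TNFSF18 the peaks lay within the long noncoding RNA gene ENSG00000224228, which runs on the plus strand from 172775905 to 173064015 and so overlaps TNFSF18 in antisense. Of the 32 control peaks, 21 lay in this gene. The 4 control peaks nearest to the processed pseudogene AIMP1P2, of 399 to 999 bp between 172871201 and 172896199, were all lost, and 1 of them covered its start. Of the 10 control peaks nearest to the long noncoding RNA ENSG00000224000, 7 were conserved and 3 lost, and its start had a peak in both lists. The widest control peak of that group, of 5799 bp from 172902601 to 172908399, was represented in cadmium by 2 peaks of 1199 and 1399 bp, which together covered 44.8% of it.

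At the far end, PRDX6-AS1, a long noncoding RNA gene antisense to the peroxidase gene PRDX6, was the closest gene of 2 control peaks of the window and of 2 cadmium peaks, all conserved. The peak of 599 bp from 173393001 to 173393599 had the same limits in both lists. The control peak of 6599 bp from 173405801 to 173412399 crossed the limit of the window, and 2 cadmium peaks covered 36.3% of it, with only the first of them inside the window. The next control peak, 12870 bp past the limit, was conserved. Before the window the nearest control peak ended 12003 bp from the limit and was conserved, while the first inside it was lost, at 31999 bp.

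The lost peaks were not near misses of the overlap rule. The distance from a lost peak to the nearest cadmium peak ranged from 1201 to 27401 bp, with a median of 9001 bp, and no conserved site of the window shared fewer than 399 bp. The longest stretch of the window between cadmium peaks, of 122.2 kb from 173270800 to 173393000, held no control peak either. The stretch of 78.4 kb from 173191000 to 173269400, with the TNFSF4 starts, held 4 lost peaks. The stretch of 74.4 kb from 172968400 to 173042800 also held 4, and that of 66.4 kb from 173123800 to 173190200 held 1.

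Lost peaks of the window had a median width of 999 bp, from 399 to 1799 bp, and conserved control peaks 1599 bp, from 399 to 6599 bp. Both medians were those of the whole control list, at 999 and 1599 bp. Of the control peaks under 1000 bp, 12 of 16 were lost (75.0%), against 39.2% in the whole list. From 1000 to 1999 bp, 5 of 13 were lost (38.5%), against 25.1%. All 3 peaks of 2000 bp or more were conserved, and in the whole list 15.4% of such peaks were lost.

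**Figure D3:**
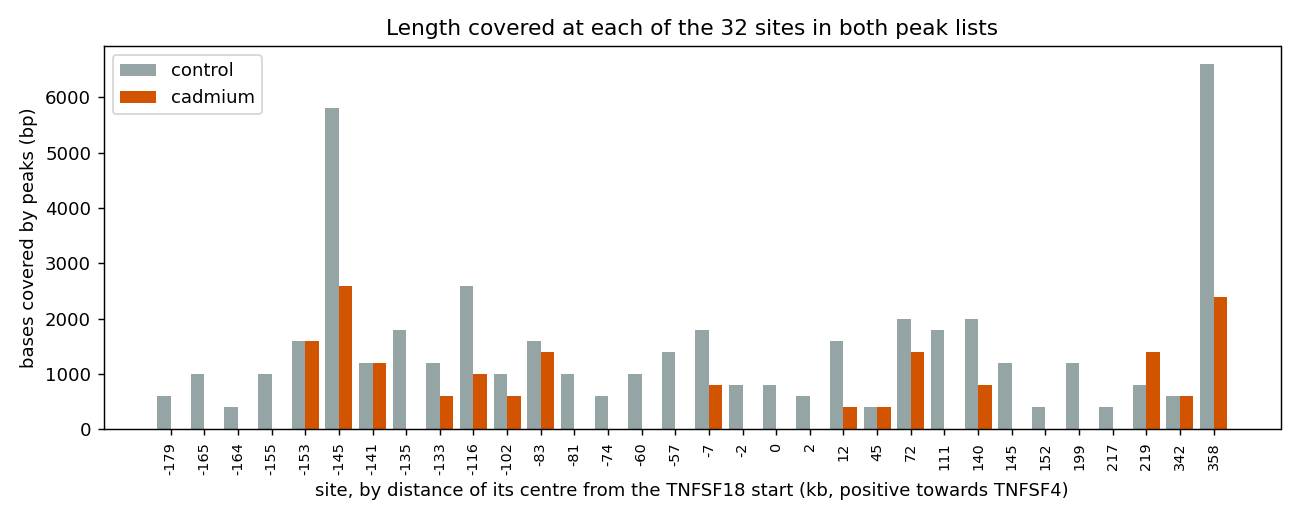
Bases covered by control peaks (grey) and cadmium peaks (orange) at each of the 32 sites, ordered along the chromosome and labelled by the distance of the site's centre from the TNFSF18 start in kb. The cadmium bar is absent at 17 sites, shorter at 10, equal at 4 and longer at 1.

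Conserved sites also covered less sequence in cadmium. Of the 15 conserved sites, the control list covered the greater length at 10 (66.7%), against 58.0% of the conserved sites of the whole lists, the 2 lists were equal at 4, and the cadmium list was longer at 1. Summed over these sites, including the bases past the limit of the window, control peaks covered 30785 bp and cadmium peaks 17183 bp, or 55.8%, against 78.8% for all conserved sites. The cadmium peaks covered a median of 60.0% of a conserved control peak, against 77.8% in the whole list, and 2 of the 15 were broken into several cadmium peaks (13.3%, against 4.33%). The outer edges of the sites did not move alike, a pattern noted after the values were seen. The left edge, the side of lower coordinates, moved inward by 200 bp at 8 sites and not at all at 7. The right edge moved inward by 400 to 1800 bp at 9 sites, stayed at 5 and moved outward by 800 bp at 1. Over all conserved sites there was no such difference, with 43.6% of left and 43.3% of right edges moved inward and a mean inward shift of 213 and 211 bp, against 107 and 467 bp in the window. Left and right are only sides of the coordinates, so local differences cancel over all sites. This balance cannot show how unusual the difference in the window is. The shift of 1800 bp was at the site that crosses the limit of the window.

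The surroundings showed losses as well. In the 1 Mb before the window, which contains FASLG, the gene of the Fas ligand, 16 of 42 control peaks were lost (38.1%, 23.6 to 54.4%) and 1 of 28 cadmium peaks was gained. In the 1 Mb after it, 7 of 26 control peaks were lost (26.9%, 11.6 to 47.8%) and 1 of 21 cadmium peaks was gained. Chromosome 1 as a whole had 25.2% of control peaks lost and 15.3% of cadmium peaks gained. The window was denser in control peaks than these regions, with 5.63 peaks per 100 kb, against 4.20 and 2.60 in the flanks and 2.75 on chromosome 1. In cadmium it had 2.82 per 100 kb, against 2.80, 2.10 and 2.47. The local number of reads and of chromosome copies is not known from the lists, and their part in the result was not tested.

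**Figure D4:**
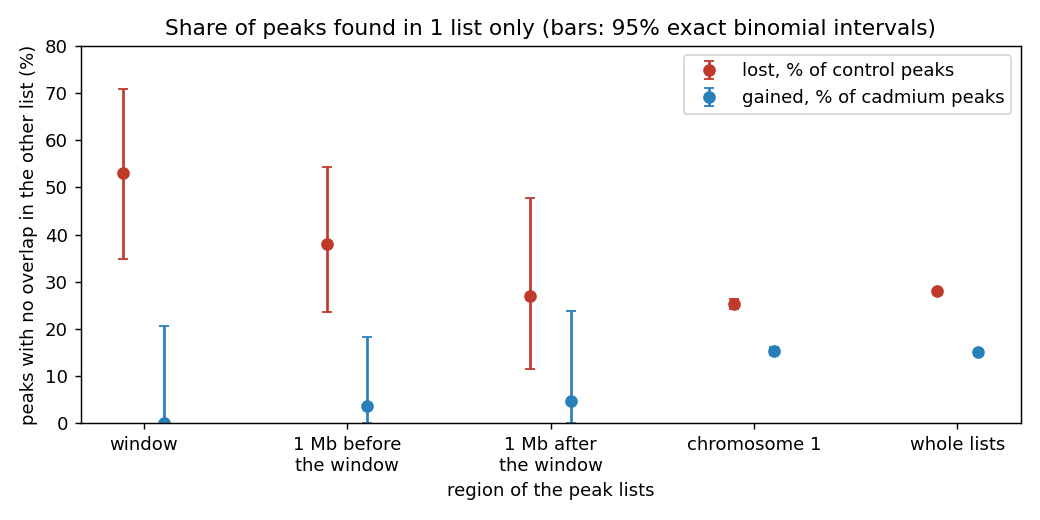
Percent of control peaks that were lost (red) and of cadmium peaks that were gained (blue) in the window, in 1 Mb on either side, on chromosome 1 and in the whole lists, with 95% exact binomial intervals for counting error. The lost share is 53.1% in the window and 27.9% in the whole control list, and the interval of the window overlaps those of both flanks. The window was picked with its losses known and neighboring peaks are not independent, so the intervals give no test of it.

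Sequence was not used in choosing the locus. The window is poor in G and C, at 38.7%, and so were its peaks, with a median of 38.6% in the 500 bases around the centre of lost peaks and 38.8% in conserved control peaks, against 43.6% and 49.2% in the whole list. Among the 17 lost peaks, 6 held an AP-1 string in these 500 bases (35.3%, against 24.5% of all lost peaks), 6 a forkhead string (35.3%, against 41.1%) and 5 the metal response element core (29.4%, against 28.8%). Among the 15 conserved control peaks the counts were 4 (26.7%, against 24.5%), 9 (60.0%, against 26.4%) and 4 (26.7%, against 36.5%). Among the 16 cadmium peaks they were 6 (37.5%, against 28.3% of the whole cadmium list), 10 (62.5%, against 25.5%) and 3 (18.8%, against 35.6%). These cadmium peaks overlap the conserved control peaks and largely hold the same sequence, so their counts are not independent of those. In these 500 bases, forkhead strings were more frequent in the conserved than in the lost control peaks of this window. The gap depended on the length searched. In 300 bases, 7 of the 15 conserved (46.7%) and 6 of the 17 lost peaks (35.3%) held one. Over whole peaks, which were wider among the conserved, 14 (93.3%) and 10 (58.8%) did. The sequence is rich in A and T, and the part of base composition in these counts was not tested.

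Over its whole length the window held 83 AP-1 strings, of which 23 (27.7%) lay in control peaks and 11 (13.3%) in cadmium peaks, while these peaks took up 7.34% and 2.85% of its bases. Of 842 forkhead strings, 72 (8.55%) and 31 (3.68%) lay in peaks, and of 267 metal response element cores, 20 (7.49%) and 9 (3.37%). The share in peaks was thus well above the share of bases for AP-1 strings and close to it for the other motifs, in both lists. All 11 AP-1 strings in cadmium peaks also lay in control peaks, so the lists are not independent here.

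The receptors of these ligands lie side by side on the same chromosome. TNFRSF18 (chr1:1203508-1206592, minus strand) had a control peak of 5399 bp over a start, from 1204601 to 1209999. In cadmium this peak was conserved only as a piece of 1399 bp, from 1208001 to 1209399, whose edge lay 1409 bp from the nearest TNFRSF18 start, so by the limit of 1 kb TNFRSF18 had a start-site peak in control only. With a limit of 3 kb it had one in both lists, unlike TNFSF18. A gained cadmium peak of 999 bp, from 1202801 to 1203799, lay over the 3′ end of the gene. TNFRSF4 (chr1:1211326-1214153, minus strand) had no start-site peak in either list, like its ligand, and its nearest peak edges were 3499 bp from a start in control and 4099 bp in cadmium.

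The TNF superfamily was described over 65 genes, and all were found in the annotation. Of 18 ligand genes, 8 had a start-site peak in each list, 7 had none, 2 had one in the control list alone and 1 in the cadmium list alone. The pair with a control peak alone were TNFSF18 and TNFSF13B, the gene of the B cell survival factor BAFF, and the one in cadmium only was TNFSF14, the gene of LIGHT. At TNFSF14 the cadmium list had a gained peak of 1199 bp over a start, chr19:6669001-6670199, and another gained peak of 2199 bp in the gene. Of 29 receptor genes, 18 had a start-site peak in both lists, 2 in control only (TNFRSF18 and TNFRSF13B, the gene of the BAFF and APRIL receptor TACI) and 9 in neither. All 18 signalling genes, among them TRAF2, TRAF5, NFKB1 and RELA, had one in both. Of all protein-coding genes, 70.0% had a start-site peak in both lists and 25.3% in neither, beside 67.7% and 24.6% of the 65 genes. Together 4 of the 65 genes (6.15%) had a start-site peak in control only and 1 (1.54%) in cadmium only, beside 3.2% and 1.5% of all protein-coding genes. The 4 include TNFSF18, which was chosen for this state, so the 6.15% is no independent observation. They also include TNFRSF18, which has a start-site peak in both lists with a limit of 3 kb. With that limit 5 of the 65 genes had one in control only.

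The number of lost peaks at TNFSF18 is part of what chose it and is set beside other genes as a description. Besides TNFSF18, 640 protein-coding genes had a start-site peak in control only, and 29 of them (4.53%) were the closest gene of at least 5 lost peaks. Of all 20046 protein-coding genes, TNFSF18 included, 271 (1.35%) were the closest gene of at least 5 lost peaks. The 640 genes are themselves picked by a loss at the start, so the 2 shares are not alike in their basis. The genes most like TNFSF18 in their numbers of lost, conserved control and gained peaks were TBPL2, TMEM45B, COL21A1 and FMN2, each with 4 lost, 3 conserved and no gained peaks, and MMP20, with 5 lost, 2 conserved and none gained. Each differed from TNFSF18 by 1 peak in all over the 2 lists. They are on chromosomes 14, 11, 6, 1 and 11 and their bodies are from 42517 to 460840 bp long, against 11740 bp for TNFSF18.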

How the data were processed

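MTF-1 CUT&RUN peaks of MDA-MB-231 cells were analysed from the 2 deposited peak lists, 1 for the 2 merged control libraries and 1 for the 2 merged cadmium libraries. Per the study's methods, the authors trimmed adaptors with bbduk and aligned reads to hg38 with Bowtie2. They merged replicates with samtools 1.8 and called peaks with Epic2 at default parameters. The methods name no background library for the peak calling. The deposited lists give chromosome, start and end of each peak, and a score column that holds the same value in every row and was not used. All widths were 199 bp plus a multiple of 200 bp, so a peak edge is known to 200 bp. Read depth is not known from the lists, and a small difference in depth or signal near the caller's threshold can remove a narrow peak.

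Peaks were classed by at least 1 shared base, as in the study. Starts and gene models were those of GENCODE 44, with 219270 distinct start positions, and distances were taken from the peak centre to the closest start, or from the nearest edge where stated. Motifs were searched as the strings given in the report, on both strands. The search covered 500 bases around the centre for shares of peaks, and 300 bases for the sequences printed and the shares beside them. Whole peaks were searched for the counts given peak by peak at both genes. The forkhead shares of lost and conserved peaks were given for all 3 lengths. The genome used was hg38, the build of the lists, and peaks passed a chromosome's end by less than 1 bin of 200 bp, if at all. Shares have exact binomial intervals (scipy 1.17.1). Figures were drawn with matplotlib 3.10.9. No test was made, since merged lists have no replicate spread and the losses chose the locus. The class, distance and motif steps were tested on simulated data and gave the known answers.

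The members and gene lists were chosen with earlier results of these data known. Genes were named by a rule: the members, genes with a start in the window or closest to one of its peaks, the receptors TNFRSF18 and TNFRSF4, listed TNF superfamily genes with a start-site peak in 1 list only, and the 5 protein-coding genes most like TNFSF18. Likeness was the sum of differences in numbers of lost, conserved and gained closest peaks among genes with a start-site peak in control only, with ties broken by gene length. FASLG, TRAF2, TRAF5, NFKB1 and RELA were named as examples outside it. Repeat content was not analysed here, since the genome used carries no repeat marks. The sequence of 1 lost TNFSF4 peak is not reported here. The expression and accessibility data of the study and the coverage files of the series were not used here.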

Additional observations from a re-analysis of the deposited data

How the results depend on the processing

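The lists carry no depth, score or replicate, so the stability of a single peak is not known, and leaving out a replicate was not possible because the replicates were merged before peak calling. No paired analysis was possible because the same merging left 1 list per condition. Of 87 alternative values of 25 results, 50 stayed within 1.5 times the reported value.

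With a flank of 100 kb, the window held 20 control and 8 cadmium peaks, 8 conserved control peaks, and 22380 and 7192 bp in control and cadmium peaks. These lengths count each peak whole, also where it crosses the limit, beside 46768 and 16184 bp with 200 kb. With 500 kb the 5 values were 56, 34, 31, 84944 and 37566, and 1 peak was gained. Applying a minimum width of 1000 bp to both lists before comparing them left 16 control and 8 cadmium peaks, 10 lost, 1 gained and 6 conserved. It left TNFSF18 with 3 lost and 0 conserved peaks, and TNFSF4 with 0 conserved and 1 gained. The lost TNFSF18 start-site peak and the lost peaks on either side of it are narrower than this and dropped out. The lost peaks then included those from 173042601 and 173062001, conserved in the main comparison, whose cadmium peaks of 799 and 399 bp were removed. The gained peak arose because its control peak of 799 bp was removed. Requiring 50% of a peak to be covered gave 8 conserved control peaks and 1 gained peak in the window, 1 conserved control peak at TNFSF18, and 1 conserved control and 1 gained peak at TNFSF4. Taking only starts of protein-coding genes gave TNFSF18 12 lost and 11 conserved peaks, since peaks near pseudogenes and noncoding genes were then assigned to it. Counting peaks over the gene body gave 2 lost and 1 conserved at TNFSF18, and likewise 2 and 1 at TNFSF4. With 1 start per gene, TNFSF4 had 1 conserved peak. With 3 kb, 1 list, the control, had a start-site peak at TNFSF4. Searching whole peaks found AP-1 strings in 19, forkhead strings in 24 and metal response element cores in 14 control peaks, and the last in 6 cadmium peaks.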
